A study of Mus musculus with 24 samples.

Results

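Gene expression in the oesophagus of wild-type mice with gastric reflux was set against that of wild-type mice without reflux. Each group held 3 arrays, so the comparison used 6 of the 24 arrays of the study, chosen by the genotype and reflux named in the labels. The mice of both groups were male C57BL/6J mice aged 12 weeks, with no allele or agent beyond the reflux named, and the reflux had lasted 4 weeks per the series title. The other arrays came from wild-type mice with duodenal or mixed reflux and from Nrf2-/- mice, which lack the transcription factor encoded by Nfe2l2, under the same 4 conditions. The labels give the tissue both as the whole oesophagus and as its epithelium, describe the arrays of a group as biological replicates, and do not say how the reflux was made. On every array the oesophageal RNA carried Cy5 and a commercial reference RNA from 11 mouse cell lines carried Cy3, without a dye swap. A level is given as the log2 ratio of Cy5 to Cy3 after normalisation, and a difference as the mean of the gastric reflux arrays minus the mean of the arrays without reflux, with its standard error from the limma fit. A gene was called when its p-value, adjusted by the Benjamini-Hochberg method over all 20552 genes tested, was under 0.05.

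The oesophagus is lined by a stratified squamous epithelium whose basal cells divide and whose upper cells make keratins and cornified envelope proteins. In the mouse the muscle coat beneath it is largely striated, and vessels, fat, nerves and connective tissue lie in and around the wall. Gastric reflux brings acid and pepsin onto this epithelium, whereas duodenal reflux adds bile. Injured squamous epithelium is known for basal cell division, release of cytokines and chemokines, and the entry of white blood cells.

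The arrays were not alike in their technical history. Arrays 1 and 2 without reflux were on slide 1, scanned on the first of 3 scan days, whereas array 3 without reflux and all 3 gastric reflux arrays were on slide 2, scanned on the second day. On slide 1, 13% and 11.8% of spots were marked as outliers by the scanner software and left out, against 0.293 to 0.659% on the other arrays. As a result 3089 of the 20552 genes (15%) had a value on only 1 array without reflux, and 15471 had a value on all 6. Mean net Cy5 intensity was 1938 and 1418 on slide 1, 4591 on array 3 without reflux and 5767 to 6131 on the gastric reflux arrays. Between 58.3 and 70% of probes were well above background, and the number of arrays limits the precision. Gastric reflux arrays 2 and 3 resembled each other (r = 0.985 across genes, which are not independent replicates) more than array 1 resembled either (0.871 and 0.879). Array 1 correlated with the arrays without reflux at 0.907 to 0.935, and arrays 2 and 3 at 0.767 to 0.842. Markers of squamous epithelium stood above the reference RNA: the squamous keratin Krt13 at 4.91 to 6.02 and the epithelial transcription factor Trp63 at 6.38 to 7.63 on the arrays that measured them. These markers cannot tell the whole oesophagus from its epithelium. In whole tissue, a lower level through fewer cells of a type cannot be told apart from less RNA per cell.

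Under gastric reflux 629 genes were higher, which is 3.06% of the genes tested, and 217 were lower, which is 1.06%. At an unadjusted p under 0.05 there were 2561 higher and 1847 lower genes, and the median difference over all genes was −0.03. The 6 arrays did not overlap between groups for 563 of the 629 rises and 214 of the 217 falls. Calling selects genes whose groups lie apart, so these counts add no separate support. A single control value stood behind 3 of the rises and 19 of the falls. The rises were of several kinds across arrays. For 258 of them gastric reflux arrays 2 and 3 both stood more than 1 log2 unit above array 1, for 33 array 1 stood that far above both others, and for 269 the 3 arrays lay within 1 log2 unit of each other. Of the falls, 211 had their gastric reflux arrays within 1 log2 unit.

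The number of calls depended on single arrays. It was 846 with all arrays, 22 without array 1 of the mice without reflux, 31 without their array 2 and 468 without their array 3. It was 2558 without gastric reflux array 1, 20 without array 2 and 96 without array 3. With array 3 without reflux as the only control, which puts both groups on 1 slide and 1 scan day, 16 genes were called, 4 higher and 12 lower. With the scan day as a block 10 genes were called, and with the slide as a random block 417. Each group's slide and scan day therefore could be separated from reflux only through that 1 control array. With the mean level of 35 skeletal muscle genes as a covariate, 70 genes were called, 61 higher and 9 lower.

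**Figure D1:**
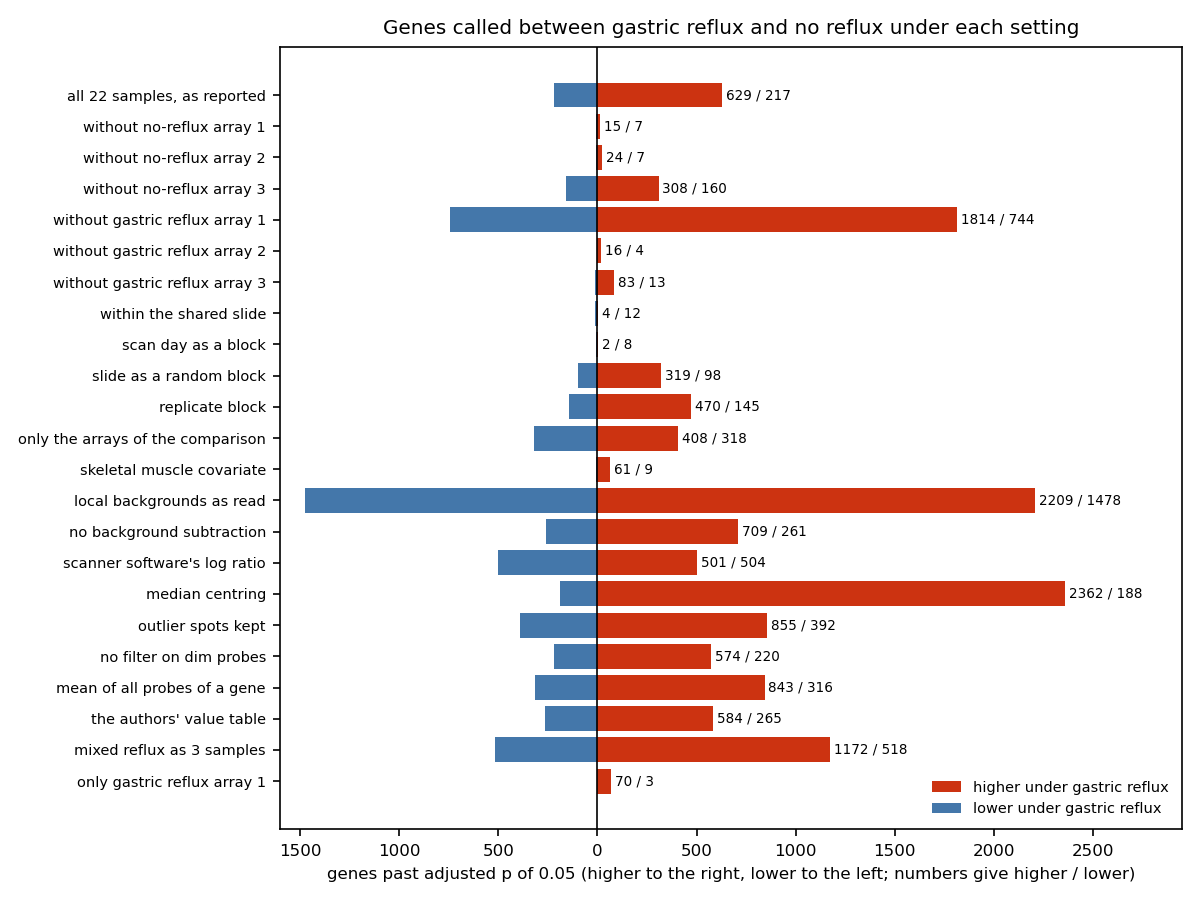
Genes past the adjusted p of 0.05 in the comparison of gastric reflux with no reflux in wild type, higher to the right and lower to the left, under each way of choosing arrays and processing. The bars run from 629 higher and 217 lower genes as reported to 2 higher and 8 lower with the scan day as a block, to 2362 higher and 188 lower with median centring, and to 2209 higher and 1478 lower, the largest total, with the local backgrounds as read.

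A set of 13 features kept its call and its direction in each of the 6 fits that left out 1 array, 11 higher and 2 lower. Leaving out 1 array does not separate reflux from slide and scan day. Several of the rises, Mup8, Mup10, Mup5, Pln and Prg4 among them, were not well above background on any control array. Such genes passed the filter on dim probes only through other groups. The 13 features were the major urinary proteins Mup8, Mup10 and Mup5, Pln, Cryab, Epyc, Prg4, Fkbp5 and Rgs6 among the rises, and Cpm and Wnt10a as the 2 falls. The other rises were the unnamed transcripts ENSMUST00000084544 and NAP102507-1.

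Fkbp5, a co-chaperone of the glucocorticoid receptor whose gene glucocorticoids induce, was −1.35, −1.14 and −1.47 on the arrays without reflux and −0.41, −0.20 and −0.16 under gastric reflux. All gastric reflux arrays lay above all controls, and Fkbp5 rose by 1.06 ± 0.13 (adjusted p = 0.00164), which is 2.09-fold. It was also called against the control array of its own slide, at 1.21 (adjusted p = 0.0215). The Fkbp5 probe lies at chr17:28536878-28536937 on build mm9 as given in the scanner files. The other probes of Fkbp5 gave 0.38 and −0.57, the mean of all its probes gave 0.29 (adjusted p = 0.505), and with the local backgrounds used as read the difference was 0.43 (adjusted p = 0.0898).

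Cpm, which encodes carboxypeptidase M, a membrane enzyme that trims basic residues from peptides, was 2.00, 1.46 and 1.96 without reflux and 0.60, 0.81 and 0.75 under gastric reflux. The groups did not overlap, and Cpm fell by 1.09 ± 0.15 (adjusted p = 0.00358). Against the control array of the same slide the difference was −1.24 (adjusted p = 0.0142). The Cpm probe lies at chr10:117121930-117121989 on build mm9. The call was lost with the backgrounds as read (−0.18, adjusted p = 0.556) and with median centring (−0.45, adjusted p = 0.327). In the other wild-type groups the mean of Cpm was 0.92 with duodenal and 1.63 with mixed reflux.

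Wnt10a, a secreted Wnt ligand, was 0.91 and 1.16 on the 2 control arrays that measured it and 0.03, −0.66 and 0.04 under gastric reflux. It fell by 1.23 ± 0.19 (adjusted p = 0.00983), and within the shared slide the difference was −1.36 (adjusted p = 0.0669). Hoxa2, a homeobox transcription factor, was 1.59, 0.94 and 1.99 without reflux and 0.91, 0.30 and 0.39 under gastric reflux, with a difference of −0.97 ± 0.22 (adjusted p = 0.0272) that was also called within the slide (−1.46, adjusted p = 0.0281). The gap between the groups at Hoxa2 was that between 0.94 and 0.91, and with the local backgrounds as read the difference was 0.02. Upk3bl, an uroplakin-like membrane protein gene, was measured on array 3 only among the controls, at 4.31, and stood at 1.50, 1.39 and 2.03 under gastric reflux, a difference of −2.67 ± 0.40 (adjusted p = 0.00978). The uncharacterised gene 0610040J01Rik likewise had a single control value of 1.61 against 0.44, −0.06 and 0.04.

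The largest rises were genes of liver-secreted proteins and of major urinary proteins. A list of liver genes and a list of major urinary protein genes, both drawn up after their values were seen, are used here to describe them. Of 35 tested liver genes 21 rose and none fell, with a median difference of 2.42, and all 6 tested major urinary protein genes rose, with a median of 3.89. Over all genes the median was −0.03 and 3.06% were called higher. Fabp1, the fatty acid binding protein of liver and small intestine, was −0.54 and 0.06 on the control arrays that measured it and 7.03, 5.89 and 4.10 under gastric reflux, a difference of 5.91 ± 1.07 (adjusted p = 0.016). The 3 reflux arrays fell in the order array 1, 2, 3, and all stood above the controls.

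Mup1, which encodes a pheromone-carrying protein made in the liver and excreted in urine, was 0.03, 0.01 and 1.72 without reflux and 6.64, 6.31 and 5.70 under gastric reflux. It rose by 5.63 ± 0.88 (adjusted p = 0.00978), and its highest control was array 3. The major urinary protein genes are near copies of each other, so probes may read more than 1 of them and single members are uncertain. Mup8, Mup10 and Mup5 were not well above background on any control array. Their fitted differences were 4.42 ± 0.55, 4.31 ± 0.56 and 2.75 ± 0.31. From the Cy5 channel alone, the means of Mup10 and Mup5 under gastric reflux were at least 12.4-fold and 5.11-fold higher than the lowest detectable control signal. Alb, the gene of serum albumin, was 0.10, −0.06 and 0.26 without reflux and 3.88, 3.74 and 3.34 under gastric reflux, with a difference of 3.56 ± 0.71 (adjusted p = 0.021). Fgb, which encodes the fibrinogen beta chain, was −0.05, 0.00 and 1.25 against 4.71, 4.20 and 3.67, a rise of 3.79 ± 0.75 (adjusted p = 0.0202).

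The protein products of the other large rises in this group are mostly plasma proteins. Fgg (fibrinogen gamma chain) rose by 3.91, Ambp (the precursor of alpha-1-microglobulin) by 3.99, Mug1 (murinoglobulin, a protease inhibitor) by 3.96, Apoh (apolipoprotein H) by 3.75 and Ces3b (a liver carboxylesterase) by 4.04. The acute-phase protein gene Hp rose by 3.45 ± 0.86 (adjusted p = 0.0359) and Apoa1 by 2.11 ± 0.47 (adjusted p = 0.0272). Not all liver genes moved: Ass1 gave −0.21, Apoc1 −0.38, Hpd 0.71 and Tat 0.60, and Cyp2e1, a liver cytochrome P450, gave 2.19 ± 0.80 (adjusted p = 0.121). Over the 41 tested genes of both lists 27 were called, 40 were highest on gastric reflux array 1 and 38 followed the order array 1, array 2, array 3. Array 3 was the highest control for 23 of the 38 genes measured on all 3. None of the 41 was called within the shared slide, where the medians were 2.29 and 3.30.

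Single arrays changed how many liver genes were called. The count of 21 became 0 without control array 1, 1 without control array 2, 14 without control array 3, 19 without gastric reflux array 1, 0 without array 2 and 13 without array 3, while the median stayed between 2.16 and 3.95 under the 22 other settings tried. The mean over the 32 liver genes with a value on all 24 arrays was 0.03, −0.02 and 0.34 without reflux and 3.36, 2.41 and 1.72 with gastric reflux. In wild-type mice with duodenal reflux it was 1.80, 1.93 and 1.90, and with mixed reflux 0.46, 1.58 and 0.39. The mean over 6 major urinary protein genes was 0.15, 0.14 and 1.09 without reflux and 5.09, 4.41 and 3.65 with gastric reflux. With duodenal reflux that mean was 3.695, 3.652 and 3.605, and with mixed reflux 1.48, 2.32 and 1.30, so its rise was not particular to gastric reflux. Whether liver tissue was part of these samples was not tested.

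**Figure D2:**
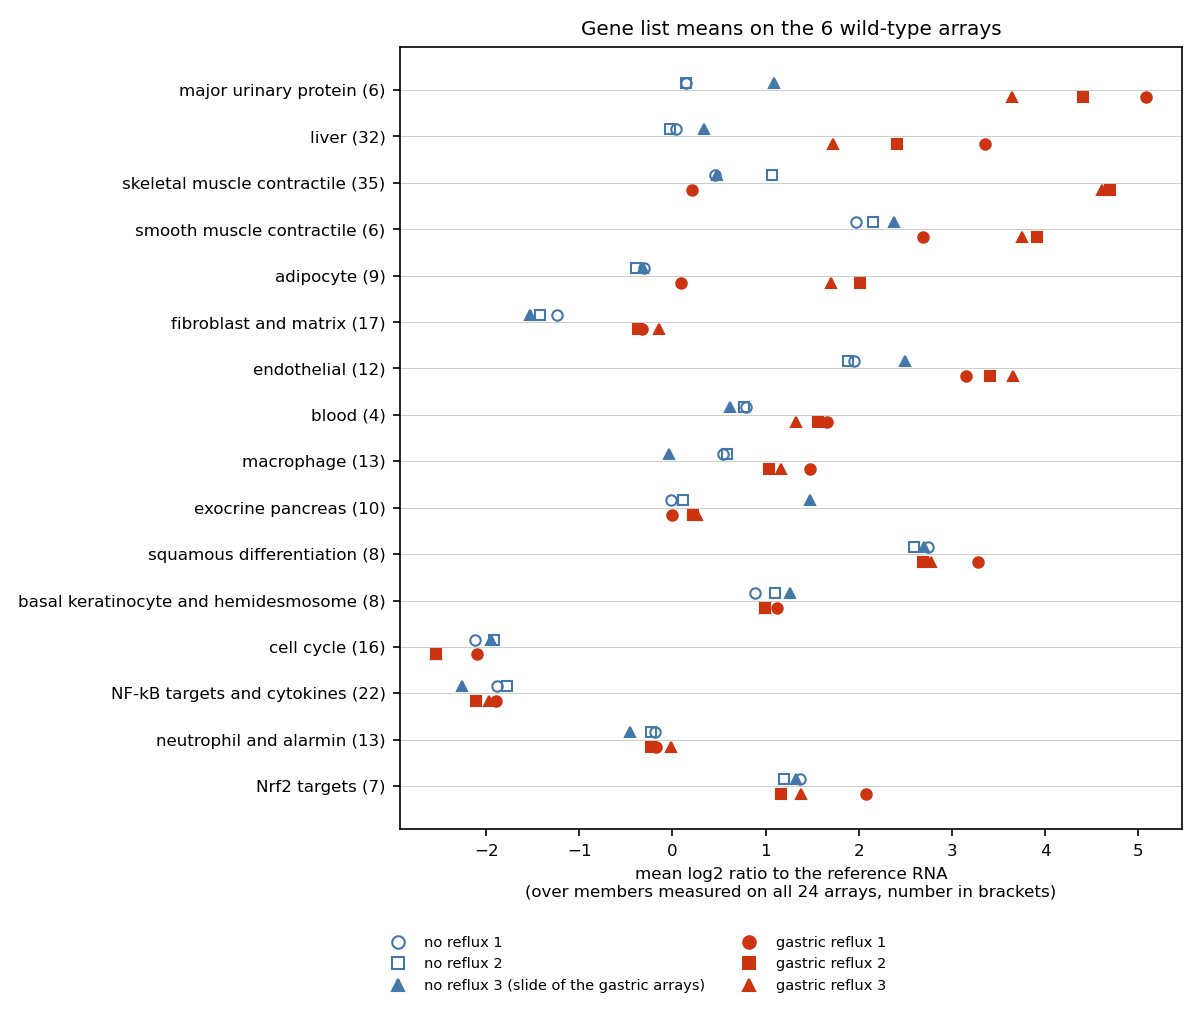
Mean log2 ratio to the reference RNA of each gene list on the 6 wild-type arrays, over members measured on all 24 arrays. Major urinary protein and liver genes are high on all 3 gastric reflux arrays, skeletal muscle genes are at 4.69 and 4.61 on arrays 2 and 3 and at 0.21 on array 1, and exocrine pancreas genes are highest on array 3 without reflux, at 1.47.

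Promoter sequences of the liver group are shown because Alb and Fabp1 are textbook targets of the liver transcription factor HNF1, whose binding sites contain the letters GTTAAT. Of the 27 called liver and major urinary protein genes, 20 had a promoter in the RefSeq table for build GRCm38.p6. The letters GTTAAT, searched on both strands in the 250 bases before the start, were found in 6 of the 20 (30%), against 632 of the 13205 tested genes with a promoter (4.79%). A match is a description of the letters, not a site. In Alb the match begins 32 bases before the annotated start, and in Fabp1 it lies farther from it. The 200 bases before the start are printed 5′ to 3′ on the gene's strand, GTTAAT in capitals, for Alb at chr5:90460670-90460869 and Fabp1 at chr6:71199679-71199878, both on the plus strand.
Alb: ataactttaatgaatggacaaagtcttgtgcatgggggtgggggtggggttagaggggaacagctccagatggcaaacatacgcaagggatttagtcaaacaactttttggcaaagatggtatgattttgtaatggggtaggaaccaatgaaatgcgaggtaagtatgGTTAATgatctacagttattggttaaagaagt
Fabp1: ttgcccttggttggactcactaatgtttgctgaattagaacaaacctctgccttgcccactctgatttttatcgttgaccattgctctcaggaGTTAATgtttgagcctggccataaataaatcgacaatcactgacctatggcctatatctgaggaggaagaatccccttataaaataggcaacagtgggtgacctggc

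Some genes of the exocrine pancreas set 1 control array apart. Cpa1, which encodes the digestive enzyme carboxypeptidase A1, was 4.38 on array 3 without reflux and between −0.17 and −0.07 on the other wild-type arrays. Cela3b (an elastase), Cpb1 (carboxypeptidase B1), Sycn (syncollin, a zymogen granule protein), Reg1 and Clps (colipase) were 3.76, 3.80, 3.72, 3.51 and 2.65 on that array. Other pancreatic genes were not raised there: on array 3 without reflux Cel was 1.27, Cela1 −2.08, Ctrb1 0.49, Pnlip −0.18 and Prss2 −0.13, each near or below its other controls. In a list of 10 tested pancreatic genes 4 were lower within the shared slide. These genes and the list were chosen after their values were seen. Of the 12 genes lower under gastric reflux within the shared slide 8 were pancreatic genes, and none of those 8 was called over all 6 arrays. The pancreatic amylase gene Amy2a5 had another pattern: it was −0.11, 0.06 and −0.10 without reflux and 0.18, 2.12 and 1.80 under gastric reflux (difference 1.41 ± 0.33, adjusted p = 0.028), and its rise was at least 2.14-fold from the Cy5 channel.

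Skeletal muscle genes separated the gastric reflux arrays. Of 44 tested contractile genes, 43 were higher on both arrays 2 and 3 than on array 1, by a median of 4.25, and array 1 stood above all controls for 8. Acta1, the skeletal muscle actin, was 1.24, 2.22 and 0.97 without reflux and 1.19, 6.05 and 5.88 under gastric reflux. Gastric reflux array 1 lay among the controls and the difference of 2.90 ± 1.15 was not called (adjusted p = 0.154). The median difference of the list was 2.57, and 2 of its 44 genes rose, beside 3.06% of all genes: Tnnt1, the slow fibre troponin T, by 3.52 ± 0.85 (adjusted p = 0.0349) and Atp2a1, the calcium pump of fast fibres, by 3.12 ± 0.78 (adjusted p = 0.0359). Tnnt1 was −2.28, −2.25 and −2.37 without reflux and −1.98, 2.75 and 2.87 with it. With gastric reflux array 1 as the only reflux array the median was −0.48 and none was called. Without that array, 35 of the 44 were called higher, and in a fit of the 6 arrays alone none was.

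Genes of muscle fibre types, fat and nerve showed the same arrays apart. The median difference was 2.38 for 14 fast fibre genes and 1.31 for 14 slow fibre genes. Among 18 genes of muscle regeneration and the neuromuscular junction 2 rose, Dok7, which organises the junction, by 2.75 ± 0.67 (adjusted p = 0.0333) and Ankrd1, a stress-induced muscle ankyrin repeat protein, by 1.82 ± 0.47 (adjusted p = 0.0414). Lpl, the lipoprotein lipase of fat and muscle, was −3.50, −3.23 and −4.11 without reflux and −3.15, 1.84 and 1.44 under gastric reflux, a rise of 3.66 ± 0.98 (adjusted p = 0.0446) in which array 1 lay near the controls. Of 10 adipocyte genes 2 rose, beside 3.06% of all genes: Lpl and the fatty acid transporter Cd36. Cd36 differed from Lpl in that all its reflux arrays were raised: it was −1.60, −1.38 and −2.13 against 0.24, 1.14 and 0.37 (2.29 ± 0.44, adjusted p = 0.0185). The mean of 9 adipocyte genes was −0.30, −0.39 and −0.32 without reflux and 0.09, 2.01 and 1.70 with it, and that of 9 nerve and glia genes was −0.08, 0.04 and 0.01 against −0.04, 1.61 and 1.58. None of 10 nerve and glia genes was called.

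Mitochondrial energy genes followed as values more than as calls. The median difference was 0.48 over 54 oxidative phosphorylation genes, 0.78 over 18 genes of the TCA cycle and 0.34 over 23 genes of fatty acid oxidation. Of these 1, 0 and 3 rose, beside 3.06% of all genes, and 30, 6 and 12 rested on 1 control array. The genes that rose were Ndufs1, a complex I subunit (0.81 ± 0.20, adjusted p = 0.0377), and, in fatty acid oxidation, Cd36, Acadl (0.77 ± 0.18, adjusted p = 0.0314) and Pdk4. Pdk4, the kinase that turns off pyruvate dehydrogenase, was 3.47, 3.23 and 3.39 without reflux and 3.57, 6.34 and 5.86 with it (1.89 ± 0.49, adjusted p = 0.04). The mean of 9 oxidative phosphorylation genes was −0.60 on gastric reflux array 1 and 1.98 and 1.85 on arrays 2 and 3, with the controls at −0.35, −0.18 and −0.42. With array 1 as the only reflux array the 3 medians were −0.04, 0.00 and 0.12. Of 24 genes of hypoxia and glycolysis none rose and 2 fell, beside 1.06% of all genes called lower. They were the phosphofructokinase Pfkp, by 0.48, and the aldolase Aldoc, by 0.65. Both were above 0 with median centring (0.24 and 0.08). Neither was called without control array 1, 2 or 3, without gastric reflux array 2 or 3, or with the muscle covariate. The median difference of the list was 0.26. At an unadjusted p under 0.05 the list held 9 higher and 3 lower genes, beside 2561 higher and 1847 lower among all 20552 tested.

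The mean level of connective tissue genes was higher on all 3 gastric reflux arrays than on the controls, while few single genes were called. The mean of 17 fibroblast and matrix genes was −1.24, −1.43 and −1.53 without reflux and −0.33, −0.37 and −0.15 with it, so the groups did not overlap. Of 26 tested members 4 rose and none fell, beside 3.06% of all genes called higher, and the median difference was 0.97, or 1.03 with array 1 as the only reflux array. Cilp, the cartilage intermediate layer protein, was 0.91, 1.51 and 1.35 against 4.20, 5.30 and 5.23 (3.66 ± 0.80, adjusted p = 0.0269). Fbn1, the fibrillin of elastic microfibrils, was −1.07, −1.04 and −1.69 against 0.18, 0.69 and 0.96 (1.87 ± 0.47, adjusted p = 0.0366). The lysyl oxidase-like gene Loxl1, which acts in elastin crosslinking, rose by 1.59 ± 0.38, and Ogn, the small proteoglycan osteoglycin, by 1.34 ± 0.29. The collagens Col1a1 and Col3a1 gave 0.30 and 0.84, fibronectin (Fn1) 0.80 ± 0.23 (adjusted p = 0.056) and lumican (Lum) 1.97 (adjusted p = 0.235), none of them called. The 4 calls became 0 when control array 1, control array 2, gastric reflux array 2 or gastric reflux array 3 was left out, 2 without control array 3, and 0 within the shared slide and with the muscle covariate.

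In a list of tendon and cartilage genes made after values were seen, 4 of 14 rose, beside 3.06% of all genes: Cilp, Epyc, Prg4 and Thbs4. The count was 2 without control array 1 or 2, without gastric reflux array 2 or 3 and with the muscle covariate, and 0 within the shared slide. Epyc, a small proteoglycan of cartilage, was 0.40, 0.36 and 0.45 without reflux and 2.32, 2.54 and 2.83 under gastric reflux. All its reflux arrays stood above the controls, array 1 included, with a rise of 2.16 ± 0.34 (adjusted p = 0.00978). Prg4, the joint lubricant lubricin, was not well above background on any control and rose by 2.07 ± 0.31 (adjusted p = 0.00779), at least 3.64-fold from the Cy5 channel. Thbs4, a thrombospondin of tendon and muscle matrix, was 3.65, 3.87 and 3.34 against 5.62, 6.45 and 6.39 (2.53 ± 0.69, adjusted p = 0.0485), but the scanner software's own ratio gave −0.33.

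In the list of smooth muscle genes 3 of 14 rose, beside 3.06% of all genes, with a median of 0.83. Whether these rises came from smooth or striated muscle was not tested. The 3 rises became 0 without control array 1 or 2, without gastric reflux array 2 or 3, within the shared slide and with the muscle covariate, and 2 without control array 3. Smtn, the actin-binding smoothelin, rose by 1.27 ± 0.26 (adjusted p = 0.021), Kcnmb1, a potassium channel subunit of smooth muscle, by 1.12 ± 0.27 (adjusted p = 0.0298) and the calsequestrin Casq2 by 1.88 ± 0.48 (adjusted p = 0.0394). Kcnmb1 was 0.60, 0.65 and 0.62 without reflux and 1.65, 1.98 and 1.60 with it. The defining markers were not called: Acta2 gave 0.86, Actg2 1.05, Cnn1 −0.15 and Myh11 −0.47. Pln, which encodes phospholamban, the inhibitor of the calcium pump in cardiac, slow and smooth muscle, was 0.11, −0.11 and 0.34 against 1.46, 3.90 and 2.71. It was not well above background on any control and rose by 2.58 ± 0.41 (adjusted p = 0.00978), at least 3.96-fold. Cryab, the small heat shock protein of muscle and lens, was 0.05, 0.46 and 0.23 against 1.41, 3.28 and 3.42 (2.46 ± 0.37, adjusted p = 0.00779), so array 1 was raised as well but less than arrays 2 and 3. Rgs6, a regulator of G protein signalling, was 0.06, 0.19 and 0.05 against 1.03, 1.52 and 0.89 (1.04 ± 0.15, adjusted p = 0.00553), at least 1.43-fold.

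The mean level of vessel genes was higher on all 3 gastric reflux arrays than on the controls, and a few vessel and red cell genes were called. The mean of 12 endothelial genes was 1.95, 1.88 and 2.50 without reflux and 3.16, 3.41 and 3.66 with it. Of 15 tested members 3 rose, beside 3.06% of all genes, and the median was 1.10, or 0.63 within the shared slide. None was called within the slide or with the muscle covariate. Pecam1, the endothelial adhesion molecule CD31, was 0.22, 0.19 and 0.50 against 1.75, 1.74 and 1.94, a rise of 1.50 ± 0.35 (adjusted p = 0.028). Cdh5, the cadherin of endothelial junctions, rose by 1.62 ± 0.41 (adjusted p = 0.0385). Prox1, which specifies lymphatic endothelium and is also made in liver and muscle, rose by 1.60 ± 0.32 (adjusted p = 0.0204), at least 2.54-fold, and was 0.60 on array 1 and 2.12 and 2.33 on arrays 2 and 3. The other Prox1 probe gave −0.06. The receptors Kdr (1.56, adjusted p = 0.0598), Tek (2.08, adjusted p = 0.0569) and Tie1 (1.10, adjusted p = 0.0521) were not called.

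Of 5 blood genes 2 rose, beside 3.06% of all genes called higher. The count was 0 without control array 1, without gastric reflux array 2, with the scan day as a block and with the muscle covariate. It was 1 without control array 2, control array 3 or gastric reflux array 3. Hba-a1, the alpha globin of red cells, was 1.85, 2.06 and 1.61 without reflux and 3.75, 3.74 and 3.24 with it, and rose by 1.74 ± 0.29 (adjusted p = 0.00983). Alas2, the red cell enzyme that starts haem synthesis, rose by 1.52 ± 0.36 (adjusted p = 0.0297), while the red cell anion exchanger Slc4a1 gave −0.01. Kit, the receptor of mast cells and of the pacemaker cells of gut muscle, rose by 1.67 ± 0.39 (adjusted p = 0.0296), and it was 1 call among 12 genes of mast cells and eosinophils, whose protease gene Cpa3 gave 0.61. No endothelial gene was called without control array 1, control array 2, gastric reflux array 2 or gastric reflux array 3.

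No gene of the inflammation lists below was called, beside 3.06% of all genes called higher and 1.06% lower. At those shares lists of 8 to 25 genes can hold none. None of 16 macrophage genes passed, though 14 had a positive difference and the median was 0.88. With the local backgrounds as read 8 rose and 1 fell, at a median of 1.55, while 4 rose in a fit of the 6 arrays alone and 2 with median centring. Of all 20552 genes, 2209 rose and 1478 fell with the backgrounds as read. In the fit of the 6 arrays 408 of all genes rose, and with median centring 2362. The mean of 13 of them was 0.55, 0.58 and −0.04 without reflux and 1.47, 1.03 and 1.17 with it. Ccr2, the chemokine receptor of monocytes, was 1.45, 1.67 and 1.33 against 3.61, 3.49 and 3.32, without overlap, and its difference of 1.99 ± 0.77 had an adjusted p of 0.144. The lysozyme gene Lyz2 (2.03 ± 0.73, adjusted p = 0.118), the complement gene C1qb (1.95 ± 0.74, adjusted p = 0.139) and the mannose receptor Mrc1 (1.73 ± 0.74, adjusted p = 0.19) were not called either. No gene was called among 14 of neutrophils and alarmins, 15 of T and NK cells, 8 of B and plasma cells, 8 of MHC class II, 20 induced by interferon, 25 of NF-kB targets and cytokines and 20 of wounded epithelium. At an unadjusted p under 0.05 those lists held 1, 0, 0, 1, 1, 2 and 3 higher genes, and the last held 2 lower ones. Of all 20552 genes 2561 were higher and 1847 lower at that threshold.

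Il1b, the gene of the cytokine interleukin-1 beta, was −0.49, −0.62 and −1.36 without reflux and −0.97, −1.87 and −1.46 with it (−0.61 ± 0.80, adjusted p = 0.707). Tnf gave −0.33 ± 0.17 (adjusted p = 0.274) and Ccl2, the chemokine that draws monocytes, 0.49 ± 0.23 (adjusted p = 0.22). Il6 was not well above background on any of the 6 arrays. S100a8, an alarmin of neutrophils and stressed keratinocytes, gave −0.07. Camp, the cathelicidin precursor, was −0.65, −0.20 and −0.55 against −0.37, 3.05 and 3.02 (2.36 ± 0.65, adjusted p = 0.0507), with array 1 among the controls.

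Few genes of the squamous epithelium were called, beside 3.06% of all genes called higher and 1.06% lower. Of 38 squamous differentiation genes none was called, with a median of −0.32 that became 0.34 when the local backgrounds were used as read. Of 29 junction genes none was called, with a median of −0.34 that became 0.47 in the same way and 0.00 with median centring. Krt13, a keratin of the upper layers, was 6.02 and 5.84 on the controls that measured it and 5.13, 4.91 and 5.06 under gastric reflux (−0.90 ± 0.36, adjusted p = 0.159). The basal keratin Krt5 gave −0.15 ± 0.42 (adjusted p = 0.885), Krt14 −0.68, its upper-layer counterpart Krt4 −0.48 and the envelope protein Sprr3 −0.49. Flg2, a filaggrin-like protein, was 1.27, 1.87 and 2.22 against 4.08, 4.20 and 2.56 (1.82 ± 0.55, adjusted p = 0.0651). Of these, Krt14, Krt4 and Sprr3 rested on 1 control array, as did 20 of the 38 differentiation genes.

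Among 20 genes of basal keratinocytes and hemidesmosomes 2 fell, beside 1.06% of all genes, and the median was −0.47, or 0.11 with the backgrounds as read. Sox15, a transcription factor of the SOX family, was 2.53, 2.56 and 2.65 without reflux and 2.14, 1.51 and 1.71 with it (−0.80 ± 0.17, adjusted p = 0.0227). Lamb3, a chain of the laminin that anchors basal cells, fell by 1.12 ± 0.28 (adjusted p = 0.0414) from a single control value. With the backgrounds as read both had positive differences, 0.34 and 0.16. Areg, an EGF receptor ligand, was 0.50, 0.85 and 0.03 against −0.67, −1.20 and −0.86 (−1.37 ± 0.38, adjusted p = 0.0526), and Plau, the urokinase gene, gave −1.13 ± 0.32 (adjusted p = 0.0537), so neither passed although their groups did not overlap. Bnc1, the basonuclin of basal keratinocytes, was −1.75, −1.61 and −1.35 against −1.98, −3.08 and −2.98 and fell by 1.11 ± 0.23 (adjusted p = 0.0222).

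The other large falls were few in kind. Myb, a transcription factor of progenitor cells, was −1.03, −0.38 and −1.04 without reflux and −2.65, −3.18 and −1.89 with it, a fall of 1.76 ± 0.36 (adjusted p = 0.0219). Its other probes gave −1.21 and −0.26. Foxd1, a forkhead transcription factor, was −3.19, −2.97 and −3.16 against −4.40, −4.55 and −4.11, a fall of 1.24 ± 0.22 (adjusted p = 0.0156). Both groups were tight at Foxd1 and the gap between them ran from −4.11 to −3.19. Arhgap33 fell by 1.35, 1700056E22Rik by 1.62, Ccnjl by 1.19, Olfr74 by 1.17, Ly6g5b by 1.14 and Ccdc74a by 1.10. Other probes gave −1.58 for Foxd1, −0.31 for Arhgap33 and −0.17 for Ccdc74a. Sis, the sucrase-isomaltase of the intestine, was not well above background on any gastric reflux array and was at least 2.06-fold lower there.

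**Figure D3:**
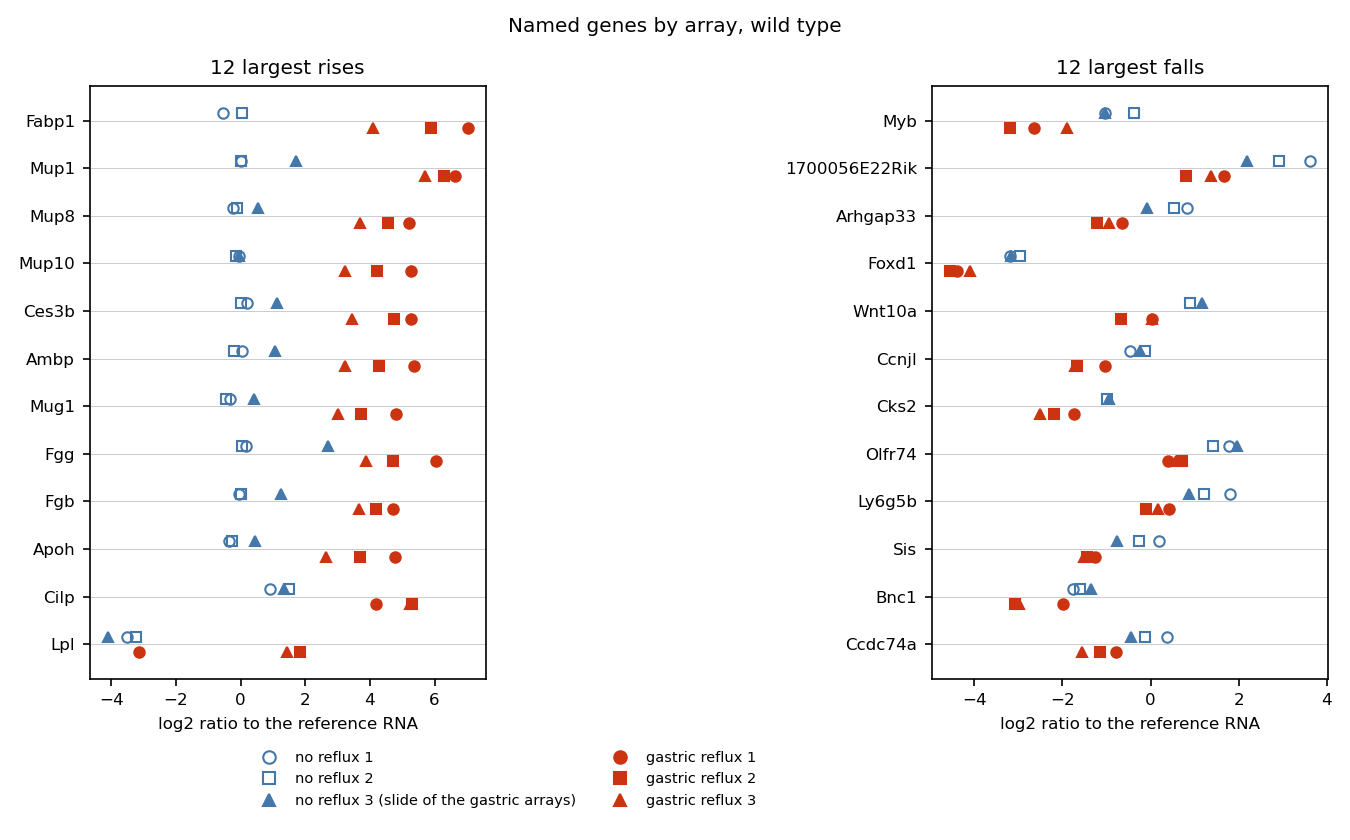
Log2 ratio to the reference RNA on each wild-type array for the 12 largest rises and the 12 largest falls among called genes measured on at least 2 arrays of each group without overlap. The liver and major urinary protein genes run in the order array 1, 2, 3 under gastric reflux, Lpl is raised on arrays 2 and 3 only, and the falls are smaller, at most 1.76 log2 units.

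Some genes of mitosis fell under gastric reflux. Of 35 tested cell cycle genes 8 fell and none rose, beside 1.06% of all genes, and the median was −0.38; it was 0.01 with median centring, which sets the median of all genes at 0.295. The mean of 16 of these genes was −2.12, −1.92 and −1.95 without reflux and −2.10, −2.54 and −2.54 with it, so array 1 lay among the controls. Of the 8, 4 rested on 1 control array: Ccna2, Cdc20, Ccnb2 and Birc5. Cdc20, the activator of the anaphase-promoting complex, was −0.24 on that array and −1.06, −1.73 and −1.74 under gastric reflux (−1.27 ± 0.27, adjusted p = 0.0272). With the outlier spots kept it was −0.77 (adjusted p = 0.053). Cyclin genes Ccna2 and Ccnb2 fell by 1.00 and 0.87.

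The other calls had more control values. Tpx2, a spindle assembly factor, was −2.23, −2.28 and −1.87 against −2.40, −2.98 and −3.11 (−0.70 ± 0.17, adjusted p = 0.0298), and it was 0.01 with median centring. Bub1, a spindle checkpoint kinase, was −3.90, −3.61 and −3.41 against −4.00, −4.65 and −4.83 (−0.85 ± 0.20, adjusted p = 0.0308). Cenpa, the centromeric histone, fell by 0.99 ± 0.23 (adjusted p = 0.0288), and Aurkb, the mitotic kinase, by 0.73 (adjusted p = 0.0446). Cks2, a partner of the mitotic kinase that is not in the list, fell by 1.18 ± 0.23 (adjusted p = 0.0197). Other probes gave −0.39 for Bub1 and −0.97 for Cks2. The DNA replication genes were not called: Mcm2 gave 0.07, Mcm3 0.09, Mcm5 0.05, Pcna −0.06 and Rrm1 −0.01. The 8 falls became 0 without control array 1 or 2 and without gastric reflux array 2 or 3, 1 without control array 3, and 13 without gastric reflux array 1. They also became 0 within the shared slide, with the skeletal muscle covariate, with gastric reflux array 1 as the only reflux array and in a fit of the 6 arrays alone.

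Promoters of 2 of these genes are shown because many mitotic genes carry CCAAT boxes, bound by NF-Y, close to their starts. Of the 8 called cell cycle genes 5 had a promoter in the RefSeq table. The letters CCAAT, searched on both strands in the 250 bases before the start, were in 4 of the 5 (80%), against 4741 of 13205 tested genes (35.9%). TTTGAA, the core of the cell cycle homology region, was in 2 of the 5 (40%), against 12.2% of all. These are matches of letters, not sites, and 5 genes are few. The 200 bases before the start are printed 5′ to 3′ on the gene's strand, from RefSeq on GRCm38.p6, CCAAT in capitals, for Ccnb2 at chr9:70421555-70421754, with 3 matches, and Cdc20 at chr4:118437344-118437543, with 2, both on the minus strand.
Ccnb2: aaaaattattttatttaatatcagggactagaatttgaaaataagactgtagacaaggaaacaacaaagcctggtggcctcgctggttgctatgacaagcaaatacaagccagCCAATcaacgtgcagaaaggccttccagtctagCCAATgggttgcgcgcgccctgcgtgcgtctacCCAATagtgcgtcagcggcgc
Cdc20: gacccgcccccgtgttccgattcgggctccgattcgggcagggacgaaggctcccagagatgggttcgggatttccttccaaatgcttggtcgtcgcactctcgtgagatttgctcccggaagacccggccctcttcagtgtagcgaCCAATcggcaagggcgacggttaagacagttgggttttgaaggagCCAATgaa

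Genes that respond to hormones and the day cycle included several rises. In a glucocorticoid-responsive list made after values were seen 4 of 19 rose, beside 3.06% of all genes: Fkbp5, Klf9, Dusp1 and Pdk4, with a median of 0.28 for the list. Klf9, a transcription factor induced by glucocorticoids, was 0.86, 0.57 and 0.79 without reflux and 1.38, 2.29 and 2.18 with it (1.21 ± 0.28, adjusted p = 0.0288). Dusp1, a phosphatase of MAP kinases, was −0.51 and −0.86 against 0.39, 0.42 and 0.73 (1.20 ± 0.27, adjusted p = 0.0275). Tsc22d3, a textbook target of the glucocorticoid receptor, gave 1.02 ± 0.43 (adjusted p = 0.18). The count was 1, Fkbp5, when control array 1, 2 or 3 or gastric reflux array 2 or 3 was left out.

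Of 18 genes of the circadian clock 3 rose, beside 3.06% of all genes, with a median difference of 0.30 for the list. The 3 calls became 0 without control array 1 or 2, without gastric reflux array 2 or 3, within the shared slide and with the muscle covariate, and 1 without control array 3. Cry2, a clock repressor, rose by 1.01 ± 0.23 (adjusted p = 0.0276), and Dbp, a transcription factor with a strong day rhythm, by 1.29 ± 0.28 (adjusted p = 0.0272) from 1 control value. Array 1 was the lowest of the 3 reflux arrays for Cry2 and for Dbp.

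Genes of acid handling were called about as rarely as genes in general. Of 29 tested acid-base and ion transport genes 1 rose and 0 fell, beside 3.06% of all genes called higher and 1.06% lower. The median of the list was 0.14, and at an unadjusted p under 0.05 it held 7 higher and 3 lower genes. The rise was that of Gpr4, a receptor that senses protons on endothelium. Gpr4 was 0.22, 0.33 and 0.31 without reflux and 0.89, 0.74 and 0.81 with it (0.53 ± 0.12, adjusted p = 0.0297). The values of all 3 reflux arrays were close and above the controls, but the gene was lost when gastric reflux array 2 or 3 or control array 1, 2 or 3 was left out, and its other probe gave 0.00077. Car9, a carbonic anhydrase of the cell surface, was −0.81, −1.09 and −1.57 against −1.82, −2.19 and −2.09 (−0.88 ± 0.25, adjusted p = 0.0547). The gastric proton pump genes Atp4a and Atp4b gave 0.09 and −0.10. Chga, the granule protein of endocrine cells, rose by 1.16 ± 0.23 (adjusted p = 0.0197). It was the 1 call among 9 genes of stomach, thyroid and salivary gland, beside 3.06% of all genes called higher.

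Nfe2l2, the gene of Nrf2 itself, was 1.71 on the control array that measured it and 1.96, 1.45 and 1.62 under gastric reflux (−0.03 ± 0.33, adjusted p = 0.969). None of 39 Nrf2 target genes was called, beside 3.06% of all genes called higher and 1.06% lower. Their median was −0.08 and became 0.34 with median centring and 0.20 with the backgrounds as read. The nearest were Gsr, glutathione reductase (0.63 ± 0.17, adjusted p = 0.0512), and Ephx1, an epoxide hydrolase (0.71 ± 0.20, adjusted p = 0.0512). For 24 of the 39 only 1 control array had a value. The mean of 7 targets measured on all arrays was 1.36, 1.20 and 1.33 without reflux and 2.08, 1.17 and 1.38 with it, highest on gastric reflux array 1.

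The counts in the next lists were of 1 gene or none, beside 3.06% of all genes called higher and 1.06% lower. Of 32 growth factor genes 1 rose, the BMP inhibitor Nog (1.21 ± 0.25, adjusted p = 0.0237), and 1 fell, Wnt10a. Of 16 p53 targets 1 rose, Ccng1, which was −1.40 on array 1 and 1.60 and 1.49 on arrays 2 and 3, with controls from −2.03 to −1.60 (2.41 ± 0.54, adjusted p = 0.0272). Ptgis, prostacyclin synthase, was the 1 rise among 23 prostaglandin and eicosanoid genes (1.36 ± 0.34, adjusted p = 0.0351), and Lss, lanosterol synthase, the 1 fall among 23 sterol genes (−0.84 ± 0.21, adjusted p = 0.0359), though its other probes gave −0.40 and 0.004. Dusp1 was the 1 rise among 17 immediate early genes. No gene was called among 20 of retinoid metabolism, 25 of the unfolded protein response and heat shock, and 19 of columnar and intestinal epithelium. The median differences of those 3 lists were 0.04, 0.13 and −0.02, and at an unadjusted p under 0.05 they held 3, 6 and 2 higher genes.

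**Figure D4:**
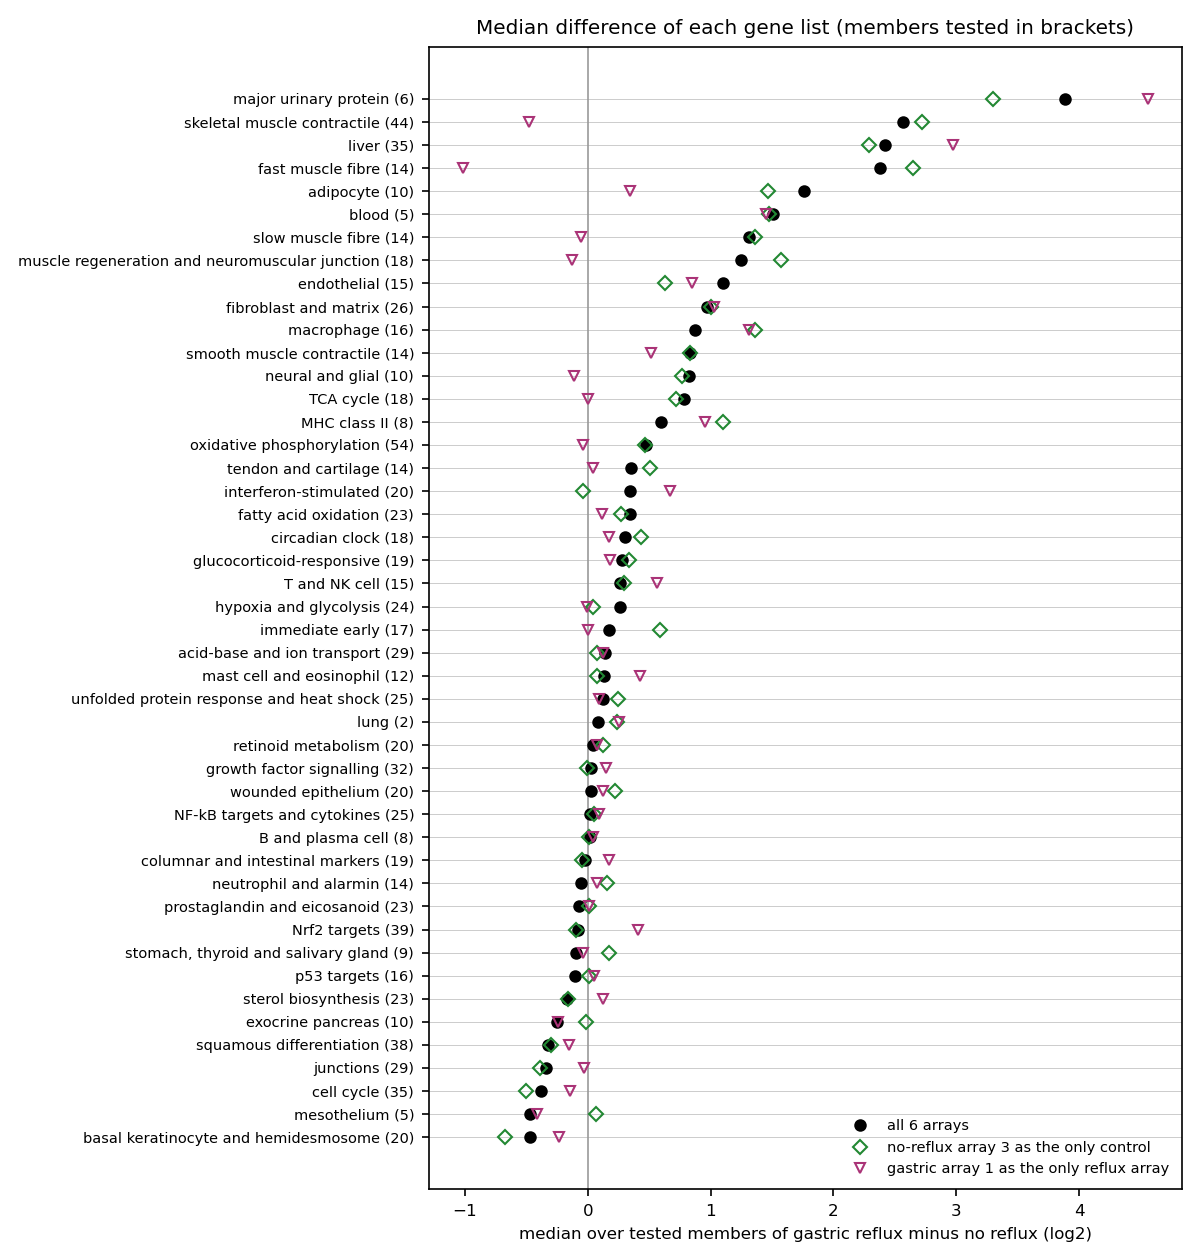
Median log2 difference between gastric reflux and no reflux over the tested members of each gene list, with all 6 arrays, with array 3 as the only control and with gastric reflux array 1 as the only reflux array. The medians of the liver (2.42, 2.29 and 2.97) and matrix lists (0.97, 1.00 and 1.03) stay close, and that of skeletal muscle goes from 2.57 to −0.48 with array 1 alone.

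The same contrast was made in Nrf2-/- mice, with their own 3 controls, and the differences between genotypes were tested in the same fit. The wild-type difference exceeded the Nrf2-null one for 151 genes (0.735% of those tested) and was below it for 216 (1.05%). A fit of the arrays of these 4 groups alone gave 0 such genes, with 3409 at an unadjusted p under 0.05, and leaving out 1 wild-type array gave 46 to 2087. Slide and scan day also differed between the genotypes: the Nrf2-null arrays without reflux were on slides 3 and 5 and those with gastric reflux on slides 5 and 6. Nrf2-null gastric reflux array 1 correlated with arrays 2 and 3 of its group at 0.754 and 0.788, and arrays 2 and 3 with each other at 0.943. Its mean net Cy5 intensity was 1421, against 6734 on array 2 and 5963 on array 3. No fit left out a single Nrf2-null array, so the dependence on each of them was not tested.

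Several matrix genes were in the first set. Cilp was 1.32, 3.62 and 3.35 without and 1.84, 0.28 and 2.42 with gastric reflux in Nrf2-null mice, where the wild-type values did not overlap between conditions. The genotype difference of Cilp was 4.91 ± 1.13 (adjusted p = 0.0421). It was 3.21 ± 0.48 for Epyc and 2.94 ± 0.44 for Prg4 (both adjusted p = 0.00945), 2.98 ± 0.67 for Fbn1 (adjusted p = 0.0379), and 4.78 ± 0.98 for Thbs4 (adjusted p = 0.0298), which was −0.11 with the scanner software's ratio. Lyve1, the hyaluronan receptor of lymphatic vessels, gave 4.58 ± 1.14 (adjusted p = 0.0497), Ecm2 4.14, Angptl1, an angiopoietin-like secreted protein, 3.91, and Mamdc2, a matrix proteoglycan, 3.58. Fkbp5 was −1.43, −1.31 and −1.57 without and −1.72, −1.78 and −1.63 with gastric reflux in Nrf2-null mice, lower with reflux where the wild-type arrays were higher, and the genotypes differed by 1.33 ± 0.19 (adjusted p = 0.00945). Rgs6 differed likewise by 1.37 ± 0.21 (adjusted p = 0.00945).

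Cell cycle genes lay on the other side. The genotype difference was called for 10 of the 35 cell cycle genes, each lower in wild type, beside 1.05% of all genes. Cdc20 was −1.55, −1.31 and −1.24 without and 0.00, −0.70 and −0.59 with gastric reflux in Nrf2-null mice, and differed by −2.21 ± 0.34 (adjusted p = 0.0115). The mean of 16 cell cycle genes was −2.24, −2.10 and −2.04 without and −1.75, −1.79 and −1.70 with gastric reflux in these mice. Tnfrsf4, the T cell costimulatory receptor OX40, gave −2.23 ± 0.39 (adjusted p = 0.0125): in Nrf2-null mice it was −0.12, −0.58 and 0.04 without reflux and 1.77, 0.68 and 0.89 with it.

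The liver list mean stood higher on all gastric reflux arrays than on all controls of the same genotype, in wild-type and in Nrf2-null mice. The mean of 32 liver genes in Nrf2-null mice was −0.19, −0.11 and 0.02 without and 2.62, 1.96 and 3.04 with gastric reflux, and the genotype difference was called for 1 of the 35 tested, Ahsg, the liver glycoprotein fetuin-A (−2.95 ± 0.71, adjusted p = 0.0462). Ahsg was 2.19, 1.09 and 2.33 in wild type without reflux, against −0.09 to 0.08 in Nrf2-null controls. The skeletal muscle mean in Nrf2-null mice was 1.14, 2.18 and 2.06 without and 4.12, 1.09 and 1.16 with gastric reflux, so there 1 array stood above the rest, as 2 did in wild type. None of the 44 skeletal muscle genes differed between genotypes by the test.

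**Figure D5:**
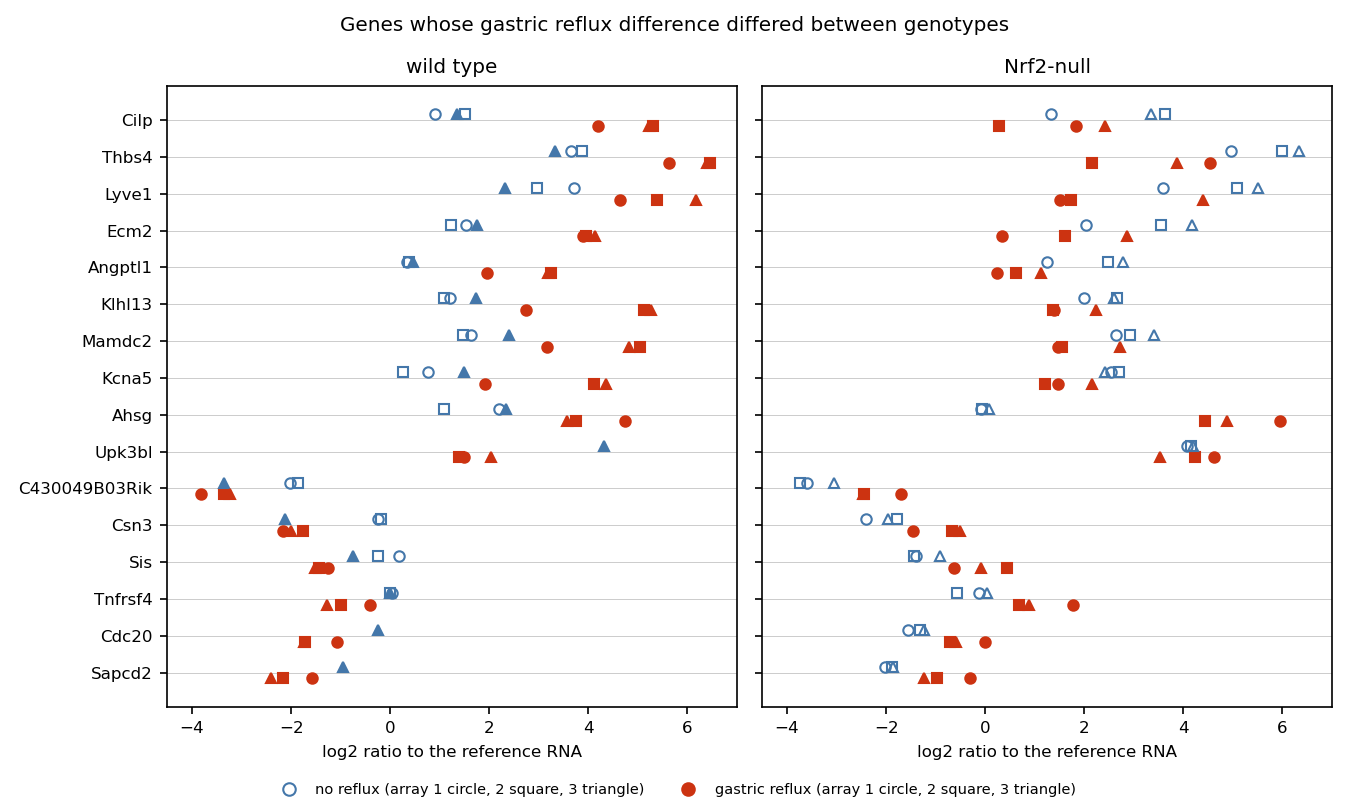
Log2 ratio to the reference RNA in wild-type (left) and Nrf2-null mice (right), without reflux (blue) and with gastric reflux (red), for the 8 largest genotype differences in each direction. From Cilp to Kcna5 the wild-type reflux arrays are the higher ones, by 2.40 to 3.66 log2 units on average, and from Ahsg to Sapcd2 the difference in wild type is below that in Nrf2-null mice.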

How the data were processed

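The files deposited by the authors hold, per the file headers, mean and local background intensities of Cy5 and Cy3 per spot on a linear scale and the scanner software's log10 ratio of Cy5 to Cy3. A separate deposited value table behaves as a log ratio in log2 units: regressed on the log10 ratio of the same array it had slopes from 2.68 to 3.14, and its column medians ran from 0 to 0.069, which shows a scale near log2 and centring near 0; the exact steps behind it are not given in the sources used here. The file headers name Feature Extraction 10.5.1.1 (build mm7) for slide 1 and 10.7.3.1 (build mm9) for the other slides, and the submitters' processing notes name version 9.1.

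From the intensities, background was corrected by normexp (offset 50) with outlier backgrounds replaced by the array median, then loess was fitted within arrays with the 1639 control spots at weight 0, in limma 3.58.1 under R 4.3.3. Outlier spots were left out, repeat spots averaged and 41174 probes named through a RefSeq table (26918 by accession, 5082 by symbol, 817 by synonym, 8357 by the file's own name). A probe was tested if its Cy5 signal passed the scanner's above-background call on each array of at least 1 group, and the brightest probe stood for its gene. One group-mean model covered 22 samples, since the 3 arrays of Nrf2-null mixed reflux differed about as little as repeat spots do and were averaged, fitted by lmFit and moderated by eBayes, with 14 residual degrees of freedom and a prior worth 2.91, and p-values were adjusted by Benjamini-Hochberg over all genes. The fit was tested on simulated data. "At least" folds use the Cy5 channel only and can carry dye bias.

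Named genes are the 12 largest rises and falls measured on at least 2 arrays of each group without overlap, up to 8 in each direction also called within the shared slide, up to 6 genes of each list with the smallest p, tissue markers and the 8 largest genotype differences in each direction. The 37 gene lists and the comparison were chosen with earlier results of these data known, 9 further lists were made after values were seen, and genes outside the rule (among them Alb, Hp, Apoa1, Cryab, Rgs6, Cks2 and the pancreatic genes) were named after their values were seen. P-values rest on the spread between arrays of the same group, pooled over the 8 groups. For genes at which the gastric reflux arrays differed more than the arrays of other groups, the standard error can be too small. Alternatives covered single arrays, slide, scan day, replicate number, muscle content, background, scaling, filters, probes and the value table. Of 246 called genes with other probes, 36 had a probe of opposite sign. The values of 1 called gene are not reported here.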

Additional observations from a re-analysis of the deposited data

Results flagged for a closer look

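The difference between gastric reflux and no reflux was set against the same difference in Nrf2-null mice by an interaction term, and 367 genes passed, 151 with a larger and 216 with a smaller difference in wild type. Among matrix and vessel genes with a larger difference in wild type, the genotype difference was 4.91 for Cilp, 4.78 for Thbs4, 4.58 for Lyve1, 4.14 for Ecm2, 3.91 for Angptl1 and 3.58 for Mamdc2. Klhl13, an adaptor of a ubiquitin ligase, gave 3.79 and Kcna5, a voltage-gated potassium channel of heart and smooth muscle, 3.58. The wild-type difference was 3.04 at the Klhl13 probe used and −0.134 at its other probe. In each of these 8 the wild-type difference was positive and the Nrf2-null difference negative. Among genes with a smaller difference in wild type, it was −2.95 for Ahsg, −2.65 for Upk3bl, −2.32 for C430049B03Rik, −2.29 for Csn3, −2.29 for Sis, −2.23 for Tnfrsf4, −2.21 for Cdc20 and −2.17 for Sapcd2. Upk3bl, Cdc20 and Sapcd2 had a single wild-type control value, on array 3.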

How the results depend on the processing

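The count of genes called between gastric reflux and no reflux in wild type was 846 as reported and ranged from 20 to 2558 when 1 array was left out. It was 16 within the shared slide, 10 with scan day as a block, 417 with slide as a random block (consensus correlation 0.109), 70 with the muscle covariate, 3687 with local backgrounds as read, 2550 with median centring, 1690 with mixed reflux as 3 samples and, in an alternative added after seeing the data, 73 with gastric reflux array 1 as the only reflux array. Higher calls were 74.3% of all calls as reported, 49.9% with the software's log ratio, 92.6% with median centring and 59.9% with backgrounds as read, which set the median of all genes at −0.161, 0.295 and 0.0921. The count of genotype differences was 367 and ranged from 46 to 2087 when 1 wild-type array was left out. It was 34 within the slide, 13 with scan day, 129 with the slide block, 0 with the arrays of the comparison alone, 205 with the muscle covariate, 2545 with backgrounds as read, 592 with no background subtraction, 217 with the software's ratio, 1644 with median centring, 597 with outlier spots kept, 177 with the deposited value table, 1183 with mixed reflux as 3 samples and 5 with gastric reflux array 1 alone. With the replicate number as a block the first count was 615 and the second 133. Deviations of same-numbered arrays correlated at 0.125, 0.0981 and −0.0395, and those of differently numbered arrays at −0.162 to 0.193. With 3 arrays per group these values cannot show whether the arrays were paired. Of named genes, the sign turned with backgrounds as read for Hoxa2 (0.022), Krt80 (0.75), Sox15 (0.34), Lamb3 (0.16), Trp63 (1.22) and Dsc1 (1.54), with median centring for Tpx2 (0.015), Pfkp (0.24) and Aldoc (0.077), with the software's ratio for Thbs4 (−0.33, and −0.11 between genotypes) and with the muscle covariate for Tnnt3 (−1.28). The cause of these changes was not tested.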
